A study of Mus musculus with 2 samples.

Results

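The genes of the cytosolic ribosomal proteins were followed in sorted leukemic stem cells from mice with experimental chronic myeloid leukemia (CML). They were taken as the listed symbols that begin with Rpl or Rps, go on with a number and end there or in a, x or l, together with Rplp0, Rplp1, Rplp2 and Rpsa. The rule found 81 genes among the 23284 genes listed, 49 of the large subunit and 32 of the small subunit. RNA-seq had been done on 1 WT and 1 STAP-1 KO library of GFP+ CD45.2+ LSK cells, the stem and progenitor fraction that lacks lineage antigens and carries Sca-1 and c-Kit. The donors were C57BL/6J mice of the Ly5.2 type, either wild type or with a targeted disruption of the gene for STAP-1, an adapter protein of hematopoietic cells. Donor LSK cells of both genotypes carried p210 BCR-ABL from a retrovirus (pMSCV-ires-GFP) and had been given to lethally irradiated C57BL/6SJL recipients of the Ly5.1 type. Mice of the study were 8 to 14 weeks old, and sorting took place on day 11 of the first transplantation of bone marrow (BMT). GFP therefore marks transduced cells of the donor, and both libraries carry the oncogene. The number of mice behind each library is not given in the sources used here. With 1 library per genotype, no difference between genotypes can be set against a spread between mice, no test was possible, and each ratio compares these libraries only.

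Every cytosolic ribosome contains a large and a small subunit, and each subunit holds a single copy of nearly all of its proteins. The small subunit reads the codons of the mRNA, and the large subunit joins the amino acids and lets the growing chain out through its exit tunnel. The mRNAs of these proteins belong to the TOP class, which begin with a run of pyrimidines that lets the mTORC1 pathway and LARP1 set their translation together. Blood formation is sensitive to ribosome supply, as loss of single ribosomal protein genes causes Diamond-Blackfan anemia in humans. Mammalian genomes also carry very many processed pseudogenes of these genes, which are intronless copies of their mRNAs, so that short reads from them are often hard to place.

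The files gave FPKM, a fragment count scaled to the exon length of the gene and to the size of the library. Whole reads could be recognised in the low values, from which effective depths of about 7500000 reads for WT and 10470000 reads for STAP-1 KO were estimated. Stap1 stood at 62.0 FPKM in WT and at 0.309 FPKM in STAP-1 KO, as the labels have it. The sorting antigens Kit and Ly6a (Sca-1) were present in both libraries but lower in STAP-1 KO, at 468 and 30.1 FPKM for Kit and 285 and 106 FPKM for Ly6a. The libraries also differed in markers of other cells. All 10 mast cell and basophil genes examined were lower in STAP-1 KO, with 51462 FPKM summed in WT and 5276 FPKM in STAP-1 KO, and all 7 genes of the granulocyte lineage examined, 5 of primary granules or their precursor cells and the transcription factors Cebpe and Gfi1, were higher, with 573 and 4640 FPKM. None of these genes was at 0 in either library. Of 5 B-lymphoid genes Ebf1 and Pax5 were listed at 0 in both libraries, with sums of 3.58 and 18.8 FPKM, and 4 erythroid genes summed to 286 and 211 FPKM. In sorted bulk cells, fewer cells of a type and less RNA per cell cannot be told apart. The part of these differences in the results below was not tested.

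Sequences that bear on how the genes can be told apart are shown first, read from GENCODE M21 transcripts on GRCm38. Rpl39 (chrX:37082520-37085402, minus strand) encodes a small protein of the exit tunnel, and Rpl39l (chr16:10170226-10174911, plus strand) encodes its paralog, which is best known from testis. Their coding sequences have 156 bases each and differ at 23 of them, an identity of 85.3%, and the differing bases are in capitals.
Rpl39: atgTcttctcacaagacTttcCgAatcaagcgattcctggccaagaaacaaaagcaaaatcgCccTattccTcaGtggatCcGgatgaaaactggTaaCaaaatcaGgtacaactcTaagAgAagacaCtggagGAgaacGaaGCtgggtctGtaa
Rpl39l: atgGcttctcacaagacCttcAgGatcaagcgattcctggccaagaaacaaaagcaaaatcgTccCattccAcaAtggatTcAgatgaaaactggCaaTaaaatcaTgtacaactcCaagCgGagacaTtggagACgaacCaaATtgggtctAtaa

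Rps27 (chr3:90212522-90213651, minus strand) and Rps27l (chr9:66946086-66949516, plus strand) encode 2 forms of a zinc-binding protein of the small subunit. The coding sequences of 255 bases differ at 61 bases, again in capitals, and are 76.1% identical.
Rps27: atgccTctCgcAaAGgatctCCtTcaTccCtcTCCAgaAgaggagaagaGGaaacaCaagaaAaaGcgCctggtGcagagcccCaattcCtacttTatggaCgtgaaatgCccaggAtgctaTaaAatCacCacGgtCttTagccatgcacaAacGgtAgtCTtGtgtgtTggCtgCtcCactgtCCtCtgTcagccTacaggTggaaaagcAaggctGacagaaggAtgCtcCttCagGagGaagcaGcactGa
Rps27l: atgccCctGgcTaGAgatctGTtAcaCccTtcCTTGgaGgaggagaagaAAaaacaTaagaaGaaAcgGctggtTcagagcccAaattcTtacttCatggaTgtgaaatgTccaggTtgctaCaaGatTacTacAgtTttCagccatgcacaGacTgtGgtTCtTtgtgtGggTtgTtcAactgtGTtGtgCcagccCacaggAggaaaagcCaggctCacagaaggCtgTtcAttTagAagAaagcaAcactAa

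Pseudogene copies are far closer than such paralogs. Gm15772 (chr5:3236431-3236868, plus strand), a processed pseudogene of 438 bases, follows the 438 coding bases of Rpl26 (chr11:68901583-68906989, plus strand) with 2 differences, an identity of 99.5%. The first 180 coding bases are shown, in which the only difference, in capitals, follows 176 identical bases.
Rpl26: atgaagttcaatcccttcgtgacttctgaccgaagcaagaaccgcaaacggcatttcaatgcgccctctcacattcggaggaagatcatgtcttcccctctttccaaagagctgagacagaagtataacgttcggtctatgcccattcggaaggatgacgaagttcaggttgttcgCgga
Gm15772: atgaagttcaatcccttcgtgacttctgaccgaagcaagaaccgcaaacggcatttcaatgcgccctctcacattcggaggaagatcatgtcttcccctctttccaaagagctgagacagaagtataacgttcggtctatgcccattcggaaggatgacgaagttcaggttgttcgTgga

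The microRNA gene Mir682 (chr13:75645046-75645141, plus strand) is a further copy. Its annotated hairpin of 96 bases matches coding bases 151 to 246 of Rpl37a (chr1:72711290-72713813, plus strand), a zinc-binding protein of the large subunit, with 1 difference, in capitals.
Rpl37a: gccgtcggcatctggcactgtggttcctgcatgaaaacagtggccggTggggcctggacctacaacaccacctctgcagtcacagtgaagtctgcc
Mir682: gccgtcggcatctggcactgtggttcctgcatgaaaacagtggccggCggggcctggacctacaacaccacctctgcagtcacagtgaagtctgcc

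The starts of the genes were read from RefSeq promoter windows on GRCm38.p6, which reach from 250 bases before to 50 bases after an annotated start. Windows were found for 61 of the 81 genes, 73 windows in all. A run of at least 8 pyrimidines (C or T, on the strand that reads as the mRNA) lay within 25 bases on either side of the start in 33 of these 73 windows (45.2%), against 19.7% of the 32851 windows of all genes. For such runs on the opposite strand, which read as A or G on the strand of the mRNA, the shares were 8.22% and 21.6%. In 16 genes the run covered the start itself, and 5 genes with the longest runs are shown with 15 bases before and 15 after the start, the run within this stretch in capitals.
Rpl7a (chr2:26910792-26910821, plus strand): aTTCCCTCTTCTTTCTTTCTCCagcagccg
Rpl27a (chr7:109519180-109519209, plus strand): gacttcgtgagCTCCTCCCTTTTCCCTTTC
Rpl34 (chr3:130730323-130730352, minus strand): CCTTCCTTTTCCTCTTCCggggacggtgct
Rpl35 (chr2:39005117-39005146, minus strand): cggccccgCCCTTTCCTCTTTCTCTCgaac
Rpl15 (chr14:18270972-18271001, minus strand): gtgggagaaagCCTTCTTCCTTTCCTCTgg

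Other letters were searched in the whole windows on both strands. CTTCCG, a form of the site that ETS factors bind, was present in 61.6% of the windows of ribosomal protein genes and in 16.9% of all windows, AAGATGGC (a YY1 motif) in 9.59% and 2.75%, CACGTG (the E-box of Myc) in 10.96% and 7.15%, and TATAA in 23.3% and 24.9%. CTTCCG can overlap the end of a pyrimidine run. Such a match describes the letters and not a bound site.

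Ribosomal protein mRNAs were listed at very unequal levels, although the subunits need their proteins in equal numbers. Values ran from 0 to 682 FPKM in WT and from 0 to 1000.1 FPKM in STAP-1 KO. The median was 31.4 FPKM in WT and 48.7 FPKM in STAP-1 KO. Of the 81 genes, 26 averaged at least 100 FPKM over both libraries, 25 had a mean under 10 FPKM, and 8 of these were under 1 FPKM. The 5 genes with the highest mean held 33.6% of the summed FPKM of the 81 genes in WT and 35.4% in STAP-1 KO. The order of the genes was nearly the same in both libraries, with a Spearman rho of 0.99 across the 81 genes, which is a description of 2 libraries made in the same way.

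Rps27l was among the 5 genes with the highest mean, with 623 FPKM in WT and 1000.1 FPKM in STAP-1 KO. Rpl32 stood at 682 and 887 FPKM, and Rpl4, which lines the exit tunnel, at 567 and 897 FPKM. All 5 were higher in STAP-1 KO. At the other end, Rpl11, Rpl26 and Rpl10l were listed at 0 in both libraries, and Rpl12, Rpl28, Rps12, Rpl39l and Rpl3l were listed at 0 in WT only. In STAP-1 KO these 5 genes stood at 0.889 FPKM for Rpl12, 0.664 FPKM for Rpl28, 3.08 FPKM for Rps12, 9.12 FPKM for Rpl39l and 0.230 FPKM for Rpl3l. A value of 0 is no sign of an absent mRNA in a gene that shares its sequence with other loci. Gapdh, a glycolytic gene that all cells use and that has many pseudogenes, was listed at 0.391 and 1.03 FPKM and Ppia at 0.758 and 0.543 FPKM. Rpl39l, Rpl3l and Rpl10l share almost no coding sequence of the read length exactly with other loci, so that these examples do not extend to them.

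**Figure D1:**
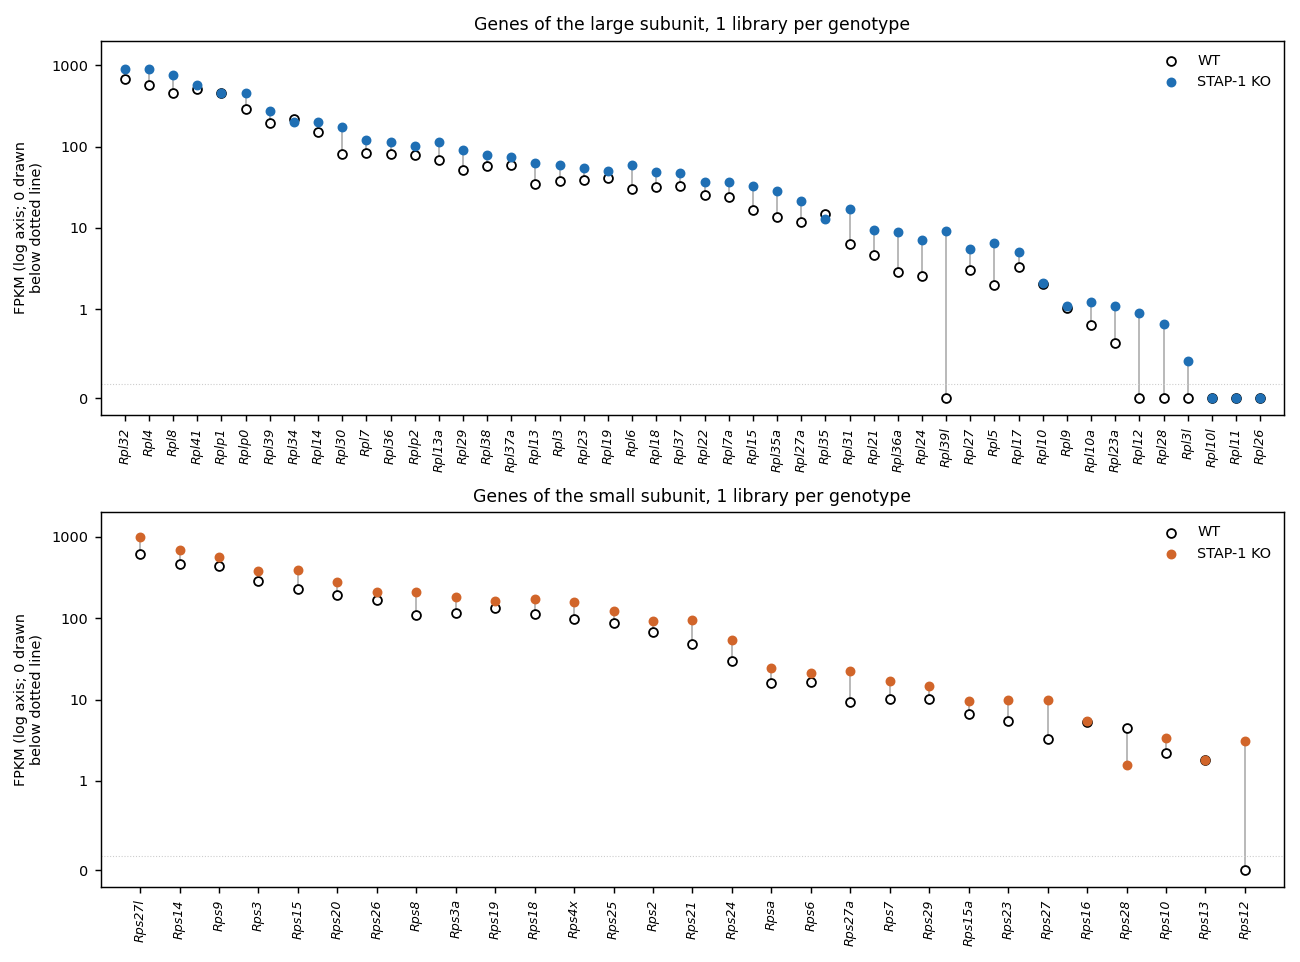
FPKM of 48 large subunit genes (upper plot) and 29 small subunit genes (lower plot) on a log axis, ordered by the mean of both libraries, with open circles for the WT and filled circles for the STAP-1 KO library. Levels fall from several times 100 FPKM to 0 within each subunit, and the filled circle lies above the open one in most genes.

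Genes whose coding sequence is shared exactly with other loci were listed at lower levels, a relation that depended on how sharing was counted. For each gene, every run of 75 bases in the coding sequence of its representative transcript, the read length, was looked up in all annotated transcripts of other loci, and the share found nowhere else was taken as unique. Of the 81 genes, 77 had at least 1 run of 75 mRNA bases in another locus, and 698 other genes, 679 of them pseudogenes, held such runs. Under 50% of the whole mRNA was unique in 30 of the 81 genes (37.04%), compared with 3.20% of the 20217 protein-coding genes listed.

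In the 33 genes with under 10% unique coding sequence the median of the mean FPKM was 6.58. It was 75.9 FPKM in the 28 genes with 10% to 50% and 353 FPKM in the 20 genes with at least 50%. Without the 4 paralogs Rpl39l, Rpl3l, Rpl10l and Rps27l, the last group of 16 genes had a median of 413 FPKM and no gene under 31.3 FPKM. Of the 26 genes with at least 100 FPKM, 1 had under 10% unique coding sequence, and of the 25 genes under 10 FPKM, 19 did. Across all 81 genes the Spearman rho between unique coding share and mean FPKM was 0.59, and 0.74 across 77 genes without the 4 paralogs. These points share the libraries and the annotation, and the rho is given as a description. For the whole mRNA it was 0.41, and only 0.11 when runs with up to 2 mismatches elsewhere were also counted as shared. Over the whole mRNA the relation was thus seen for exact copies and hardly for near copies. The coding sequence alone was not counted with mismatches. Transcript length had a rho of -0.06 with the level.

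The exceptions were few. Rpl41, whose mRNA codes for the shortest ribosomal protein, had no unique coding run but stood at 514 FPKM in WT and 573 FPKM in STAP-1 KO. Its coding sequence is 78 bases long, so that it holds only 4 such runs and most of the mRNA lies outside it. Rpl38 also had no unique coding run and stood at 58.4 and 78.3 FPKM. The other 31 genes under 10% had means of at most 48.9 FPKM. Rpl22, at 91.1% unique, stood at 25.4 and 37.1 FPKM, the lowest of the unique genes outside the 4 paralogs. How reads with several matches were treated is not given in the sources used here, and the part of this treatment in the levels was not tested. Some listed pseudogenes held a small fraction of what 1 read would give, such as Rpl34-ps1 with 0.003 and 0.007 estimated reads, which is a fraction of 1 read.

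**Figure D2:**
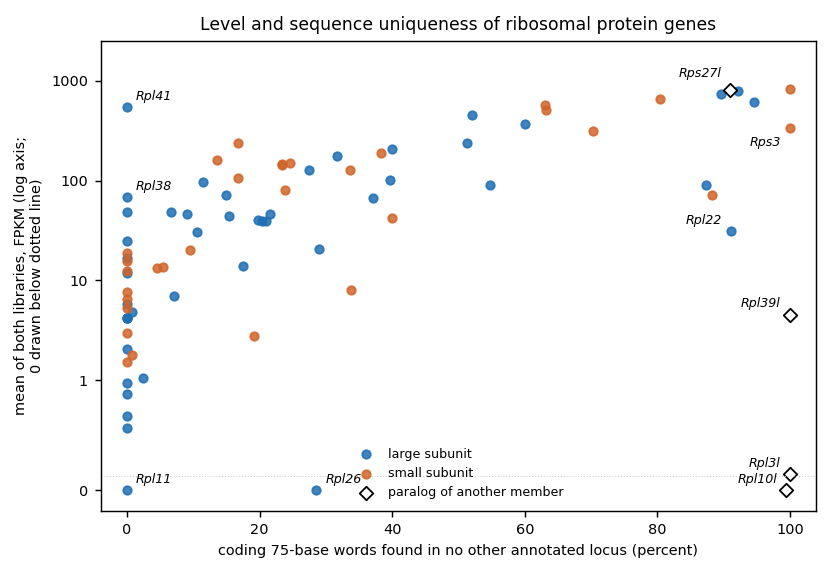
Mean FPKM of both libraries (log axis) against the percent of 75-base coding words found in no other annotated locus, 1 point per gene, with blue for the large and orange for the small subunit and open diamonds for 4 paralogs of other members. Genes with under 10% unique words lie at or below 48.9 FPKM apart from Rpl41 and Rpl38, and genes with at least 50% lie at or above 31.3 FPKM apart from 3 paralogs.

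Few of these copies were listed in the files. Of the 679 pseudogenes with a shared run, 12 were listed, and 14 listed features had at least 30% of their runs within 2 mismatches of a ribosomal protein mRNA. Gm15772, the copy of Rpl26, was the highest of the pseudogenes, with 126 FPKM in WT and 247 FPKM in STAP-1 KO, whereas Rpl26 itself was listed at 0 in both libraries. Rpl26 has 28.6% of its coding runs to itself and stood apart from other genes of that share. Gm6251, a pseudogene close to Rpl32, was listed at 105 and 128 FPKM next to 682 and 887 FPKM for Rpl32. The other pseudogenes among these 14 were at most 7.13 FPKM. The Mir682 feature had the highest value of all listed genes, with 43858 FPKM in WT and 46569.6 FPKM in STAP-1 KO, and Rpl37a was listed at 59.7 and 74.9 FPKM. A value per kilobase is not a reliable level for a feature of 96 bases, little longer than a read. Whether the reads behind Gm15772 and Mir682 came from Rpl26 and Rpl37a mRNA cannot be told from these values.

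The pairs of a ribosomal protein and its paralog gave 3 patterns. In the first, the paralog of another tissue was listed below its parent. Rpl39 stood at 196 FPKM in WT and 277 FPKM in STAP-1 KO, and Rpl39l at 0 and 9.12 FPKM, 0% and 3.18% of the pair. About 57 reads lay behind the value in STAP-1 KO (95% exact Poisson interval 6.91 to 11.8 FPKM, counting error only), and the same interval for the count of 0 in WT reached up to 0.829 FPKM. Against that upper end the difference is larger than counting error, but it rests on 1 library each. All of the 75-base coding runs of Rpl39l are unique, as the differences from Rpl39 shown above are spread along the sequence. Rpl3l, the form of Rpl3 in skeletal muscle and heart, had 0 and 0.230 FPKM next to 37.7 and 59.3 FPKM for Rpl3, and the value in STAP-1 KO stands for about 3 reads. Rpl10l, an intronless testis gene and the only one of the 81 with a single exon, was listed at 0 in both libraries, while its parent Rpl10 stood at 2.05 and 2.12 FPKM. Unlike in Rpl11 and Rpl26, 99.5% of its coding runs are unique. The same interval for its count of 0 reached up to 0.606 FPKM in WT and 0.432 FPKM in STAP-1 KO, counting error only. When runs with up to 2 mismatches elsewhere were counted as shared, 57.0% of its whole mRNA was unique.

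In the second pattern the paralog was far above its parent. Rps27l made up 99.5% of its pair in WT and 99.0% in STAP-1 KO, with Rps27 at 3.27 and 9.89 FPKM. Rpl36al, which the rule leaves out, made up 98.6% and 97.4% of its pair, with 198 and 336 FPKM next to 2.85 and 8.84 FPKM for Rpl36a. Both parents, Rps27 and Rpl36a, have no unique coding run, and 91.0% of the runs of Rps27l are unique. In the third pattern both were well above 0. Rpl22l1 stood at 77.9 and 114 FPKM, above Rpl22 at 25.4 and 37.1 FPKM, so that the paralog took 75.4% and 75.5%. The other pair was close, as Rpl7l1 stood at 70.4 and 119 FPKM and Rpl7 at 83.3 and 121 FPKM, or 45.8% and 49.5% for the paralog. Shares of a pair thus moved little between the libraries, by 3.70 percentage points at most.

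**Figure D3:**
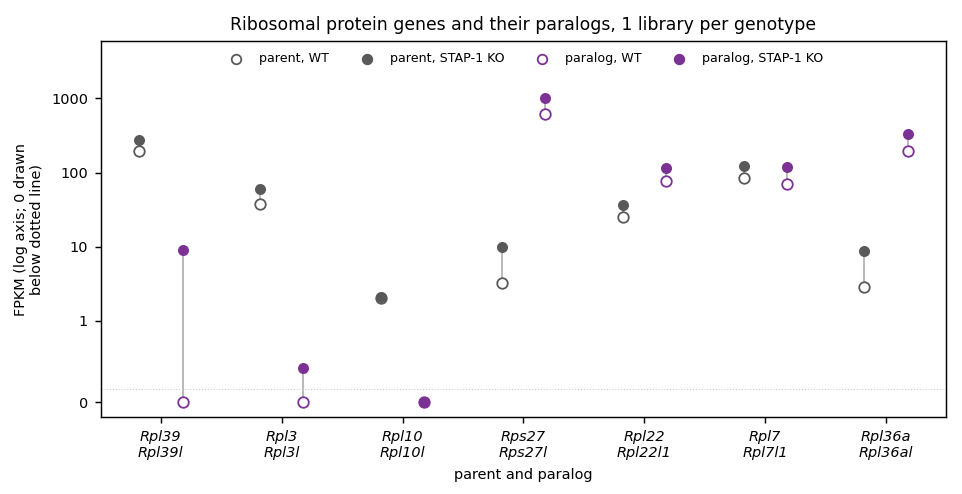
FPKM (log axis) of 7 parents (gray) and their paralogs (purple), open circles for WT and filled circles for STAP-1 KO. Rpl39l, Rpl3l and Rpl10l lie below their parents, Rps27l, Rpl22l1 and Rpl36al lie above them, and Rpl7 and Rpl7l1 are close.

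Ribosomal protein genes were higher in the STAP-1 KO than in the WT library as a group, by a small and even amount. Of the 73 genes above 0 in both libraries 69 were higher in STAP-1 KO and 4 were lower, and the median ratio was 1.54. Differences were then taken as the log2 ratio of STAP-1 KO over WT after adding 0.1 FPKM to each value. Over the 73 genes averaging at least 1 FPKM the median log2 ratio was 0.61, with quartiles of 0.42 and 0.87, compared with -0.04 and quartiles of -0.88 and 0.59 over the 10974 genes of all kinds that passed the same filter. It was above 0 in 69 of the 73, in 48.3% of all genes that passed, and in 69.4% of the 1417 other genes that passed with transcripts up to 1300 bases. Rpl39l and Rps12 passed the filter only through the STAP-1 KO library, and without them the median was also 0.61. The ribosomal protein genes together held 1.53% of the FPKM summed over features with transcripts of at least 200 bases in WT and 2.51% in STAP-1 KO. The 10 mast cell and basophil genes held 8.82% and 1.02% of the same sums. With the mast cell and granule markers left out, the shares of the ribosomal protein genes were 1.68% and 2.55%.

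The even shift was clearest among the better measured genes. In the 56 genes averaging at least 10 FPKM the ratio ran from 0.875 to 2.72. The SD of the log2 ratio over these genes was 0.31, compared with 1.39 over the 6704 other genes at that level. Of those other genes 23 were at 0 in WT and 11 in STAP-1 KO, which widens their SD. The distance between the quartiles was 0.35 compared with 1.25, and it was 0.41 in mitochondrial ribosomal protein genes averaging at least 1 FPKM. These measures describe the spread between genes and not between mice. By the estimated reads, 57 of the 73 genes above 0 in both libraries were higher by over 1.96 counting standard errors (SE), none was lower by as much, and 16 were within it. Of 13183 genes of all kinds above 0 in both libraries, with transcripts of at least 300 bases, 32.7% were higher and 38.9% were lower by that limit. For the 1584 other genes up to 1300 bases the shares were 47.9% and 17%. Counting error is thus passed by most genes in one direction or the other, and it holds no spread between mice. Reads that were divided among copies make these counting errors approximate.

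Other transcripts of like length were higher in STAP-1 KO too. The representative transcripts of the 81 genes had a median of 833 bases, and the 10855 genes averaging at least 1 FPKM and a known length had a median of 2849 bases. When the latter were placed in 20 equally filled bins of length, the median log2 ratio was 0.50, 0.52 and 0.57 in the 3 bins of the shortest transcripts and -1.05 in the bin of the longest. Of the 73 ribosomal protein genes averaging at least 1 FPKM, 63 fell in those 3 bins, below 1370 bases. The Spearman rho of length and log2 ratio was -0.40 across all 10855 genes and 0.12 across the 73. After the median of the bin was taken off each gene, the median log2 ratio of the ribosomal protein genes was 0.13, and 47 of 73 remained above 0. In the same direction, 1036 other genes with transcripts up to 1300 bases and at least 10 FPKM had a median of 0.59. The group therefore stood close to other short transcripts. Ribosome content or RNA per cell cannot be read from FPKM, which are relative within a library.

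**Figure D4:**
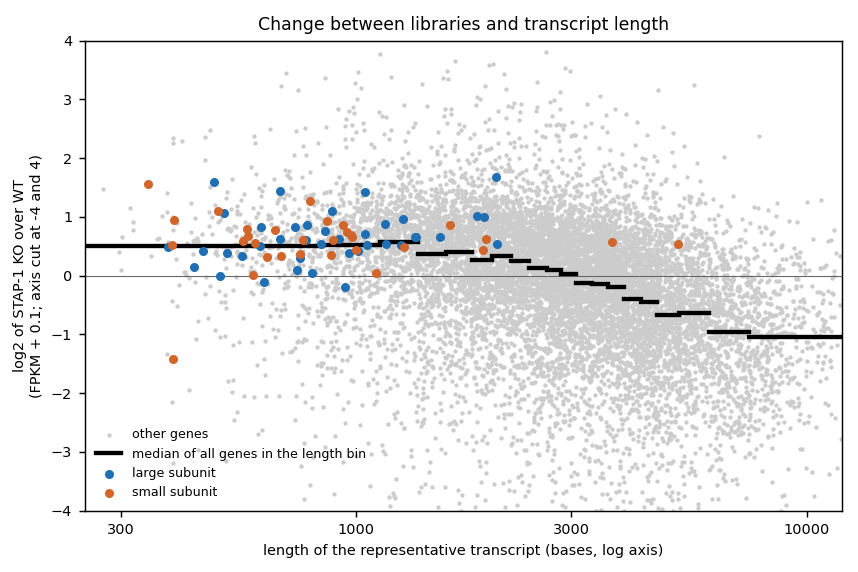
Log2 ratio of STAP-1 KO over WT against the length of the representative transcript (log axis) for genes averaging at least 1 FPKM, with other genes in gray, the large subunit in blue, the small subunit in orange and the median of all genes in each of 20 length bins as black bars. Genes at 0 in a library are left out, and most ribosomal protein genes lie near the bars of the shortest transcripts, at 0.50 to 0.57.

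With 0.1 FPKM or more in each library, a 2-fold ratio was reached by 12 of 73 ribosomal protein genes (16.4%) upward and by 1 gene downward (1.37%). Of all 12507 genes that could be called, 12.3% were higher and 22.9% were lower by that much, and of the 1587 other genes with transcripts up to 1300 bases 23.3% were higher and 13.7% were lower. The upward share was thus near the background. After the median of the length bin was taken off, 5 ribosomal protein genes were higher by 2-fold, beside 11.7% of all genes and 8.7% of the other short ones. These were Rpl5, Rpl23a, Rpl36a, Rps27 and Rps15a. Rpl24, Rpl31, Rps27a, Rpl30 and Rpl15 were then no longer among them. Rps15a had a ratio of only 1.47 and entered through its representative transcript of 5179 bases, whose bin had a median of -0.67. Rpl23a rests on about 1 and 4 reads. With the libraries scaled by summed FPKM the count was 21, beside 17% and 31.1%. At 1.5-fold 40 of the 73 were higher, beside 25.6% of all genes and 44% of the other short ones. Few of the well measured genes were among the 12. Of these 12 genes 6 had a mean under 10 FPKM, 10 had under 10% unique coding sequence, and none of the 17 callable genes with at least 50% unique coding sequence was called in either direction.

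Rpl5, a protein of the large subunit that carries the 5S rRNA, had the highest ratio, 3.31, with 1.96 FPKM in WT and 6.47 FPKM in STAP-1 KO (log2 ratio 1.67, counting SE 0.31). Rpl36a stood at 2.85 and 8.84 FPKM, a ratio of 3.10, and Rps27 at 3.27 and 9.89 FPKM, a ratio of 3.02. Their paralogs, which are listed at much higher levels, had smaller ratios of 1.70 for Rpl36al and 1.60 for Rps27l. Rpl23a had a ratio of 2.86 from about 1 and 4 reads, and Rpl24 one of 2.79 at 2.55 and 7.10 FPKM. Rpl31, a protein at the end of the exit tunnel, stood at 6.32 and 17.2 FPKM, a ratio of 2.72. Rps27a, which is made as a fusion with ubiquitin, had a ratio of 2.42 at 9.22 and 22.3 FPKM. The other 5 had smaller ratios, among them Rpl30 with 80.9 and 173 FPKM, the only one of the 12 averaging at least 100 FPKM. Rpl15, at a ratio of 2.00, lay just inside the limit, and Rpl6, at 1.96 with 30.1 and 59.0 FPKM, just outside. For 10 of the 12 the log2 ratio was over 1.96 counting SE, which Rpl23a and Rps27 did not reach.

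Of the 73 genes above 0 in both libraries 4 were lower in STAP-1 KO, and several more were nearly level. Rps28, a small protein near the mRNA exit of the small subunit, was the only gene lower by 2-fold, with 4.42 FPKM in WT and 1.58 FPKM in STAP-1 KO, a ratio of 0.358. About 6 and 3 reads lay behind these values, and the exact Poisson intervals, 1.62 to 9.64 FPKM and 0.333 to 4.59 FPKM, overlapped. Rpl35 stood at 14.8 and 12.9 FPKM, Rpl34 at 217 and 200.3 FPKM and Rplp1 at 457 and 453 FPKM, with log2 ratios of -0.19, -0.11 and -0.01, all within 1.96 counting SE of 0. Relative to the bins of their lengths these 3 genes were at -0.71, -0.62 and -0.52. Rps13 was level, with 1.78 and 1.79 FPKM from about 5 and 7 reads. Rps16 and Rpl10 had ratios of 1.03, Rpl9 one of 1.07 and Rpl41 one of 1.11.

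Both subunits had like ratios. The median log2 ratio was 0.63 in 41 large subunit genes and 0.61 in 32 small subunit genes averaging at least 1 FPKM, a difference of 0.02, and the quartiles were 0.42 and 0.88 for the large and 0.44 and 0.81 for the small subunit. The summed FPKM was 4500.5 in WT and 6251 in STAP-1 KO for the large subunit, a ratio of 1.39, and 4436 and 6757 for the small subunit, a ratio of 1.52. Listed levels were lower in the large subunit, with medians of 30.1 and 46.8 FPKM compared with 58.6 and 93.0 FPKM in the small subunit. The median unique coding share was also lower there, 15.4% compared with 21.2%. Within the 10% to 50% class the medians still differed, with 35.4 FPKM in WT in 16 large subunit genes and 105 FPKM in 12 small subunit genes, and in the class of at least 50%, without the 4 paralogs, they were 289 FPKM in 9 large and 442 FPKM in 7 small subunit genes. All 7 genes at 0 in WT other than Rps12 belonged to the large subunit.

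The stalk of the large subunit, which recruits the elongation factors, is made of Rplp0, Rplp1 and Rplp2 on a base that includes Rpl12. Rplp0 stood at 289 FPKM in WT and 454 FPKM in STAP-1 KO, a log2 ratio of 0.65 (counting SE 0.03). Rplp2 had 78.5 and 103 FPKM, a log2 ratio of 0.39 (counting SE 0.09). Rplp1 did not follow them, and Rpl12 was listed at 0 and 0.889 FPKM, so that the 4 partners of this structure were listed at levels that differ by over 100-fold in STAP-1 KO. No unique coding run exists for Rpl12, and the 3 stalk proteins have between 52.0% and 60.0%.

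Around the exit tunnel the same contrast held. Rpl4 and Rpl39 were high, Rpl17 stood at 3.29 and 5.06 FPKM and Rpl23a at 0.380 and 1.09 FPKM, and Rpl26 was listed at 0. Rpl19 had 41.0 and 50.5 FPKM. Of the 7 tunnel genes averaging at least 1 FPKM 6 were higher in STAP-1 KO, beside 48.3% of all genes and 69.4% of other short transcripts. Their median log2 ratio was 0.55, and Rpl35 was the exception. Relative to the bins of their lengths 4 of the 7 were above 0, with a median of 0.10. The 5S rRNA partners Rpl5 and Rpl11, which bind Mdm2 when ribosome assembly fails, were among the lowest, Rpl11 being listed at 0 in both libraries. Neither has a unique coding run.

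On the decoding side of the small subunit, Rps2 stood at 68.3 FPKM in WT and 92.0 FPKM in STAP-1 KO, Rps3 at 284 and 385 FPKM, Rps15 at 229 and 395 FPKM and Rps23 at 5.38 and 9.91 FPKM. All 4 were higher in STAP-1 KO, with ratios from 1.35 to 1.84, beside 48.3% of all genes and 69.4% of other short transcripts. Relative to the bins of their lengths 3 of the 4 were above 0, with a median of 0.23, and Rps2 was at -0.09. Rps3 is unique throughout its coding sequence, and its log2 ratio of 0.44 had a counting SE of 0.03. Rps6, the substrate of S6 kinase, stood at 16.6 and 21.2 FPKM. Rpsa, also known as a laminin receptor, had 15.98 and 24.7 FPKM, a log2 ratio of 0.62 (counting SE 0.12).

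Of 9 genes known from Diamond-Blackfan anemia, 8 averaged at least 1 FPKM. All 8 were higher in STAP-1 KO, beside 48.3% of all genes and 69.4% of other short transcripts. By at least 2-fold 3 of them were higher, with Rpl5 and Rpl35a among these, beside 12.3% of all genes and 23.3% of other short transcripts. After the median of the length bin was taken off, Rpl5 was the only one of them still higher by 2-fold. Rps19, the gene most often affected in that disease, stood at 132 FPKM in WT and 164 FPKM in STAP-1 KO, a ratio of 1.24. Rps26 had 167 and 209 FPKM and Rps24 29.7 and 54.2 FPKM. These are ratios of 1.26 and 1.83, on either side of the group's median. Rpl35a stood at 13.5 and 28.2 FPKM, Rps7 at 10.1 and 16.9 FPKM and Rps10 at 2.19 and 3.40 FPKM. Rps14, whose loss underlies the anemia of the 5q- syndrome, was well measured at 463 and 680.2 FPKM, a log2 ratio of 0.55 (counting SE 0.05). The median of the 8 genes was 0.80, compared with 0.61 over all 73, and 0.34 compared with 0.13 after the median of the length bin was taken off.

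Ribosomal proteins that the rule leaves out had ratios like those it takes. Gnb2l1 (Rack1), a scaffold on the small subunit, stood at 554 and 914 FPKM. Fau, which encodes a ribosomal protein fused to a ubiquitin-like protein, had 8.07 and 12.5 FPKM. Their log2 ratios were 0.72 and 0.62. Of 18 mRNAs of the TOP class that code for other proteins, 15 were higher in STAP-1 KO, beside 48.3% of all genes, with a median log2 ratio of 0.59. After the median of the length bin was taken off, 13 of the 18 were above 0 and the median was 0.18. Among elongation factors Eef1a1 stood at 480 and 536 FPKM and Eef1d at 74.6 and 161 FPKM, and Eef2 was lower, with 262 and 209.6 FPKM. Npm1, a nucleolar chaperone of ribosome assembly, had 213 and 517 FPKM, a ratio of 2.42.

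Genes of the mitochondrial ribosome had larger ratios than those of the cytosolic ribosome. All 75 Mrpl and Mrps genes averaging at least 1 FPKM were higher in STAP-1 KO, with a median log2 ratio of 0.93 and quartiles of 0.70 and 1.10, and 30 of 76 were higher by at least 2-fold, beside 12.3% of all genes and 23.3% of other short transcripts. Their transcripts had a median of 1226 bases, and after the median of the length bin was taken off the median was 0.57, compared with 0.13 for the cytosolic genes. With 1 library per genotype this difference could not be tested. Of the genes that control growth and TOP mRNAs, Myc stood at 59.3 and 169 FPKM, Mtor at 5.44 and 0.968 FPKM, and Larp1 at 35.7 and 27.2 FPKM. Myc was higher and Mtor lower in STAP-1 KO also after the median of the length bin was taken off, with log2 ratios of 1.26 and -1.32, whereas Larp1 turned from -0.39 to 0.58.

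Genes with and without a pyrimidine run near the start had like values. Among ribosomal protein genes with a promoter window and a mean of at least 1 FPKM, 29 with a run had a median log2 ratio of 0.63 and 25 without one had 0.55, and their medians of the mean FPKM were 42.0 and 39.6. Rpl34 and Rpl35, which were slightly lower in STAP-1 KO, and Rpl15, which had a ratio of 2.00, are all among the genes with the longest runs shown above.

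Small RNAs are encoded within introns of many of these genes. The files listed 35 features under 200 bases inside 24 ribosomal protein genes on the same strand, and 24 of them were at 0 in both libraries. Among those above 0, Snora70 in Rpl10 stood at 340 FPKM in WT and 460 FPKM in STAP-1 KO and Snora65 in Rpl12 at 247 and 574 FPKM. Their hosts Rpl10 and Rpl12 were themselves listed at 2.12 FPKM or less. As with Mir682, values per kilobase are not a reliable level for features this short.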

How the data were processed

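The authors sorted GFP+ CD45.2+ LSK cells, made cDNA and libraries with SMART-Seq v4 and Nextera XT, and sequenced them on an Illumina HiSeq instrument as single reads of 75 bases. The deposited values are FPKM, which the authors computed with Cuffnorm from Cufflinks 2.2.1 after mapping to mm10 with TopHat2 2.0.13 and Bowtie2 2.2.3. The annotation, the scaling between libraries and the treatment of reads with several matches are not given in the sources used here. SMART-Seq v4 does not mark strand.

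Log2 ratios of STAP-1 KO over WT used a pseudocount of 0.1 FPKM and lists were described over genes averaging at least 1 FPKM; calls needed a ratio of 2 and 0.1 FPKM in both libraries. The ratio on this scale understates the change of low genes. The members, the gene lists and the rule for named genes were chosen with earlier results of these data known. Named were members of the role lists, paralogs and parents, genes at 0, genes past the 2-fold limit, the 5 highest by mean and the 5 highest and 5 lowest log2 ratios at a pseudocount of 1 FPKM. No p-value was computed.

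Symbols were matched to GENCODE M21 (GRCm38): 20911 as written, 1887 by an older symbol, 486 not at all, and all 81 members. A gene's representative transcript is its longest coding transcript linked to a curated RefSeq entry. Depth was estimated from values under 0.3 FPKM of genes with 1 transcript, as the depth and the bases taken off the length (212 in WT and 208 in STAP-1 KO) at which the largest share became whole reads. Within 0.01 read, 47.8% of 320 WT and 49.1% of 389 STAP-1 KO values were whole. Intervals from estimated reads cover counting error only, since PCR copies are not independent molecules. The scripts (Python 3.11.15, numpy 2.4.6, pandas 2.3.3, scipy 1.17.1, matplotlib 3.10.9) were tested on simulated data. Alternatives were other pseudocounts, filters, scalings and cut-offs, corrections for length and GC content, and other ways of treating paralogs and copies. A few genes that the rule names are not reported here.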

Additional observations from a re-analysis of the deposited data

How the results depend on the processing

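No paired analysis was possible because there is 1 library per genotype. The median log2 ratio of the ribosomal protein genes, and of their large and small subunit genes, stayed above 0 under each alternative, and the difference between subunits stayed between -0.08 and 0.04. It moved by over 0.1 under 2 settings. After correction for transcript length the medians were 0.13, 0.10 and 0.17, with 5 genes at least 2-fold higher. With the libraries scaled by summed FPKM, which moves the median of all genes to 0.12, they were 0.79, 0.80 and 0.78, with 21 genes higher. A cut-off of 1.5-fold gave 40 genes higher, beside 25.6% of all genes. Alternatives chosen after seeing the data were the addition of copies found by sequence, the removal of genes at 0 in a library, a mean of at least 10 FPKM and only genes with at least 50% unique coding sequence. Of these, a mean of at least 10 FPKM left 6 genes higher and 0 lower, and the unique genes 0 and 0. A mean of at least 5 FPKM left 0 genes lower. The share of callable genes called higher changed as well. It was 16.4% of all 73, 10.7% of the 56 averaging at least 10 FPKM and 0% of the 17 with at least 50% unique coding sequence. Among the 29 callable genes with under 10% unique coding sequence it was 34.5%. Why these shares differ was not tested. Depth limits the genes with few estimated reads, such as Rpl23a with about 1 and 4.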
